A study of Homo sapiens with 6 samples.

Results

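The TGF-beta and BMP signalling genes described here are 41 named genes of the 27394 in an RNA-seq table of PANC-1 cells, chosen by name as ligands, their latent complexes, receptors, SMADs, regulators and targets. These genes and the further lists below were drawn up with earlier results of these data known. Counts over them are therefore descriptions and no test of the pathway. PANC-1 is an established human cell line from a pancreatic ductal carcinoma. Cells carried either a control shRNA (shControl, 3 libraries) or an shRNA against ZDHHC20 (shZDHHC20, 3 libraries), ZDHHC20 being an enzyme that attaches palmitate to cysteines of other proteins. The sample labels give RPMI-1640 as the medium of both groups, whereas the general culture methods of the study give DMEM. Both groups express a hairpin, and the hairpin used for these libraries is not named. In the deposited table the library columns read siZDHHC20 and NC in place of the shRNA titles, and each was assigned to its sample from the group and number it names. The comparison of the 2 groups addresses which transcripts change when ZDHHC20 is silenced. Nothing in the labels says that the replicates came from separate cultures, so p-values measure only the spread between these libraries.

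Ligands of the TGF-beta family bind a pair of type II and type I receptor kinases, and the type I receptor then phosphorylates receptor-regulated SMAD proteins. TGF-beta and activin ligands signal mainly through SMAD2 and SMAD3, BMP ligands through SMAD1, SMAD5 and SMAD9, and both branches share SMAD4. Inhibitory SMADs, ubiquitin ligases and transcriptional co-repressors restrain the response, and in pancreatic cancer the pathway is known both for growth arrest and for matrix production and invasion.

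The deposited values are gene counts divided by a size factor of each library and are called normalized counts, and they summed to 17083277 to 18007664 per library. ZDHHC20 itself fell from 1991 ± 46.9 to 848 ± 61.0 normalized counts (SD, n = 3 libraries each), that is to 42.6% of the shControl mean. Of 7 markers of ductal epithelium all were detected, with a summed level of 84836 to 87067 in shControl and 78999 to 79957 in shZDHHC20. These sums come mostly from keratins, and of the other markers E-cadherin (CDH1) rose from a mean of 287 to 629 (log2 fold change 1.13, adjusted p = 6.62e-06), MUC1 rose from 201 to 262 (0.38, 0.0452) and SOX9 fell from 3929 to 3127 (-0.33, 0.00146). Markers of leukocytes, acinar cells and islets summed to at most 69.5 in any library, and those of endothelium to at most 62.6. The libraries were not equally close to each other. The SD of the log2 difference, over 4136 genes averaging 1000 or more, was 0.0674 to 0.0718 between shControl libraries and 0.0722 between shZDHHC20 replicates 1 and 3, but 0.178 and 0.198 between shZDHHC20 replicate 2 and those replicates. Results that rest on replicate 2 are therefore also given without it.

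After silencing of ZDHHC20, 16 of the 41 genes passed an adjusted p of 0.05 in limma (39.0%), 12 of them lower and 4 higher. With 1 library left out, 7 of the 41 passed without shControl replicate 1, 9 without shControl replicate 2 or 3, 10 without shZDHHC20 replicate 1 or 3 and 23 without shZDHHC20 replicate 2, and 7 of the 16 passed in each of these fits. Over all 22189 genes tested the share was 11.5%, with 6.84% lower and 4.61% higher. Low genes pass less often, and of the 10908 genes averaging 100 or more the share passing was 21.7% (13.3% lower and 8.41% higher), against 16 of 34 pathway genes at that level (47.1%). All 41 genes passed the filter on low values. The 2 groups had no overlapping values in 22 of the 41 genes (53.7%), where 28.6% of all genes tested had no overlap. The share without overlap was not taken for genes averaging 100 or more, to which 34 of the 41 belong, so these 2 shares are not matched for level. Because the 41 genes were chosen with earlier results of these data known, these shares describe the list and do not test it. The median log2 fold change was -0.08 over the 41 genes and 0.01 over all genes tested, with 23 of the 41 below 0 and 18 above. Fold changes are on the scale of log2(normalized count + 0.1). In a bulk sample a lower value can come from fewer cells that express the gene or from less RNA per cell, which cannot be told apart. Without the mean-variance trend in limma only TGFBI, SMAD5 and ID2 passed, with adjusted p of 0.0221, 0.0327 and 0.0287.

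**Figure D1:**
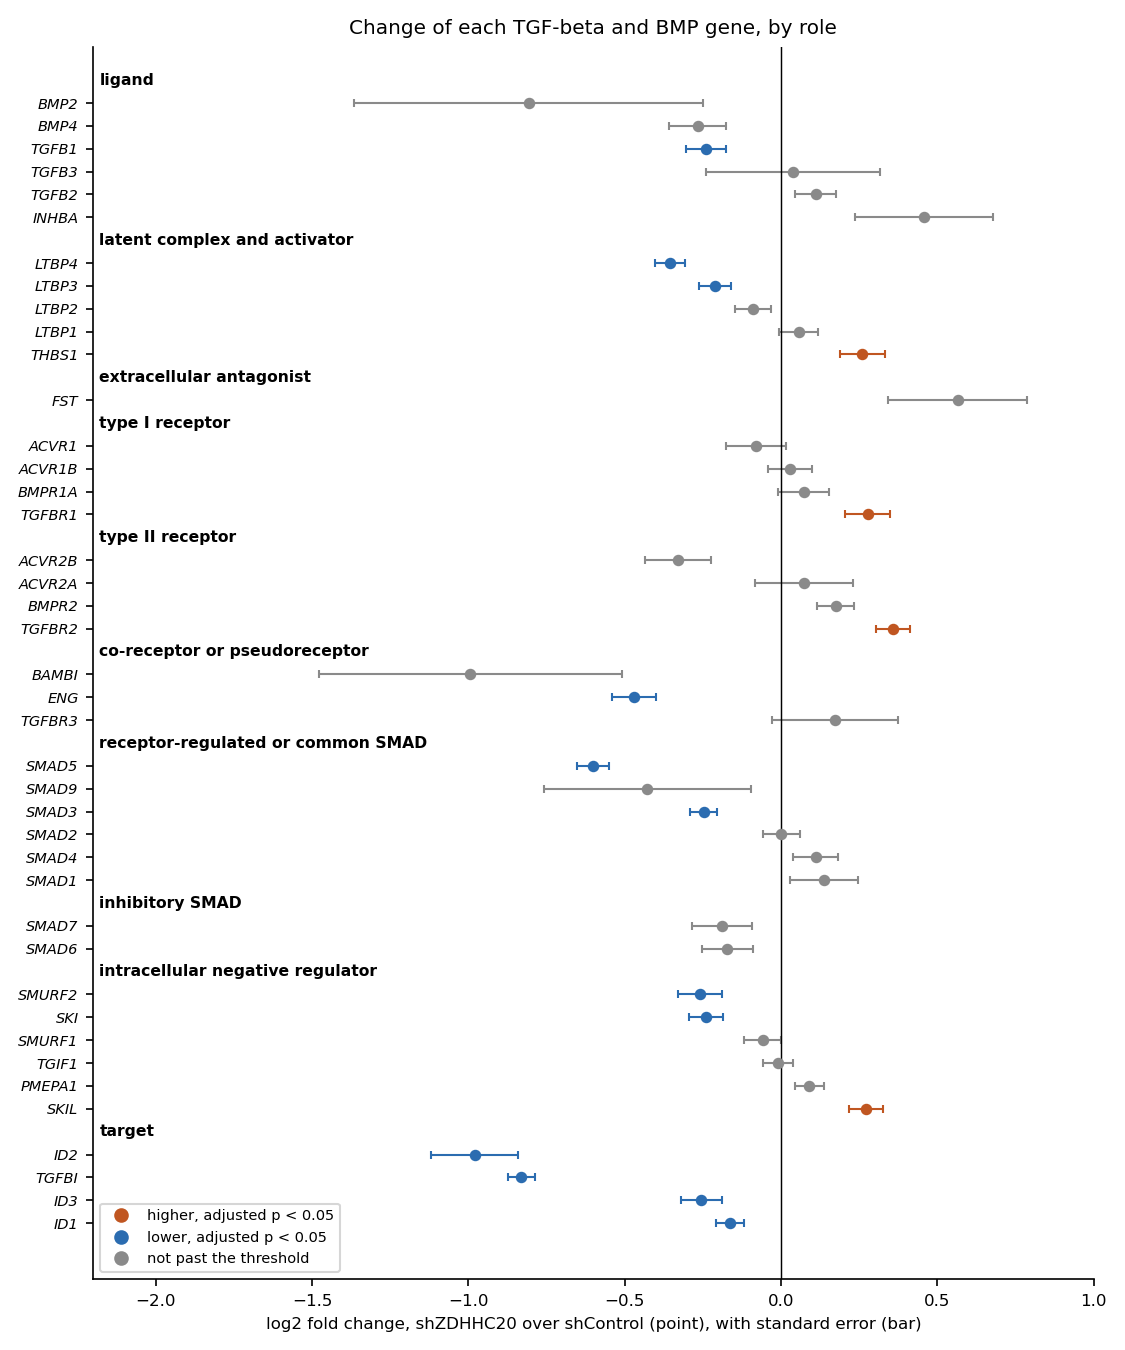
Log2 fold change of shZDHHC20 over shControl (x axis) for the 41 genes grouped by role, with the standard error as a bar (3 libraries per group). Blue points passed the adjusted p of 0.05 as lower (12 genes), orange points as higher (4 genes) and grey points did not pass (25 genes), and all 4 targets lie below 0.

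The 4 genes placed in the target role all fell. This depends on how roles were assigned. PMEPA1, also induced by TGF-beta but placed among the intracellular negative regulators, did not fall (log2 fold change 0.09, adjusted p = 0.273 in limma). Of the 16 genes that passed, 12 fell, the 4 targets included. The other 4 rose, all in other roles, among them SKIL (log2 fold change 0.27, adjusted p = 0.00575 in limma) and THBS1 (0.26, 0.033). TGFBI, ID1, ID2 and ID3 are transcribed in response to TGF-beta or BMP, and all 4 were lower in shZDHHC20 at an adjusted p under 0.05. TGFBI encodes a secreted matrix protein named for its induction by TGF-beta, and the ID genes encode helix-loop-helix proteins without a DNA-binding region that hold back differentiation factors and are classical BMP targets. The bases just before the RefSeq start of these 4 genes are shown because targets were the only role with more than 1 gene in which each gene passed in the same direction. They lie on GRCh38.p14 at chr20:31605039-31605288 (ID1, plus strand), chr2:8681806-8682055 (ID2, plus strand), chr1:23559502-23559751 (ID3, minus strand) and chr5:136028738-136028987 (TGFBI, plus strand), and are written 5′ to 3′ along the gene. Capitals mark the motifs searched on both strands, namely CAGAC or its complement GTCTG, which SMAD proteins bind, GGCGCC, which SMAD1 and SMAD5 bind, and CCAAT or its complement ATTGG, the CCAAT box.
ID1: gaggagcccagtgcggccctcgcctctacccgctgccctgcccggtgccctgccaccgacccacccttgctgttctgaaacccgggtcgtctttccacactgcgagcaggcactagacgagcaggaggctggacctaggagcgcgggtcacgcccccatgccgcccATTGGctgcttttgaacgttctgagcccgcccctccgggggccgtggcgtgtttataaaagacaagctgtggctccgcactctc
ID2: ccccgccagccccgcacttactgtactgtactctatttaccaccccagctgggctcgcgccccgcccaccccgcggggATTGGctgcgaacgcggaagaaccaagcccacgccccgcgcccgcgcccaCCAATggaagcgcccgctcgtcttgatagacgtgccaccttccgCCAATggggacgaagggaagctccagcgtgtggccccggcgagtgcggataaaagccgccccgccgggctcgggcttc
ID3: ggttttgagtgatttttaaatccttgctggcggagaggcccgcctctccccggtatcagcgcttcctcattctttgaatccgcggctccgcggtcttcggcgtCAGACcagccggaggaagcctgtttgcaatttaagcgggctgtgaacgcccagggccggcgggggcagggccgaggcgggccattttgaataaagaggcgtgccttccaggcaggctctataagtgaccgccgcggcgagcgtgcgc
TGFBI: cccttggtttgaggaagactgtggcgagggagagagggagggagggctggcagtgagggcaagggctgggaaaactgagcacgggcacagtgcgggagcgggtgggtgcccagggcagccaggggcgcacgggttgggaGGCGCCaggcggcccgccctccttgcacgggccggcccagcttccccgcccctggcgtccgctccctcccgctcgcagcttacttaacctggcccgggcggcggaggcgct
ID1 held 1 CCAAT box, ID2 held 3, ID3 held 1 CAGAC and TGFBI held 1 GGCGCC, so no motif was common to the 4 windows. Over 35116 such windows of all genes, 38.0% held CAGAC, 16.4% held GGCGCC and 32.0% held the CCAAT box. A match, or the lack of one, is a description of the letters in these windows of 250 bases only. Bases farther upstream were not searched.

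TGFBI showed the smallest adjusted p of the 41 genes. Its normalized counts were 13021, 12867 and 13409 in shControl replicates 1 to 3 and 7456, 7101 and 7537 in shZDHHC20. All 3 silenced libraries stood far below all control libraries, including replicate 2. TGFBI fell 1.78-fold (log2 fold change -0.83, SE 0.0433, adjusted p = 4.36e-07 in limma).

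ID2 had the strongest fall among the genes that passed, from a much lower level. It measured 142, 139 and 157 normalized counts in shControl and 70.0, 77.0 and 75.1 in shZDHHC20. The groups were well separated, and the silenced libraries reached 50.7% of the shControl mean (log2 fold change -0.98, SE 0.139, adjusted p = 0.000536). An antisense gene, ID2-AS1, shares 38 exon bases with ID2 and averaged only 9.73 and 5.63 in the 2 groups.

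ID3 and ID1 changed less. ID3 measured 1333, 1371 and 1345 in shControl and 1048, 1229 and 1122 in shZDHHC20. The silenced libraries all lay below the controls, with replicate 2 the closest to them (log2 fold change -0.25, SE 0.0665, adjusted p = 0.0248). ID1 measured 4892, 4776 and 4746 in shControl and 4222, 4329 and 4325 in shZDHHC20. This is a small change with tight replicates (log2 fold change -0.16, SE 0.0443, adjusted p = 0.0304). Both calls were lost when any library other than shZDHHC20 replicate 2 was left out, with adjusted p of 0.0743 to 0.134 for ID3 and 0.0594 to 0.161 for ID1, whereas TGFBI and ID2 passed with each library left out in turn. ID1 also missed the threshold with upper-quartile scaling (adjusted p = 0.0763). Per length, ID2 made up 1.35% ± 0.101 of the 3 ID transcripts in shControl and 0.781% ± 0.0180 in shZDHHC20 (SD, n = 3), and ID1 made up most of the rest.

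**Figure D2:**
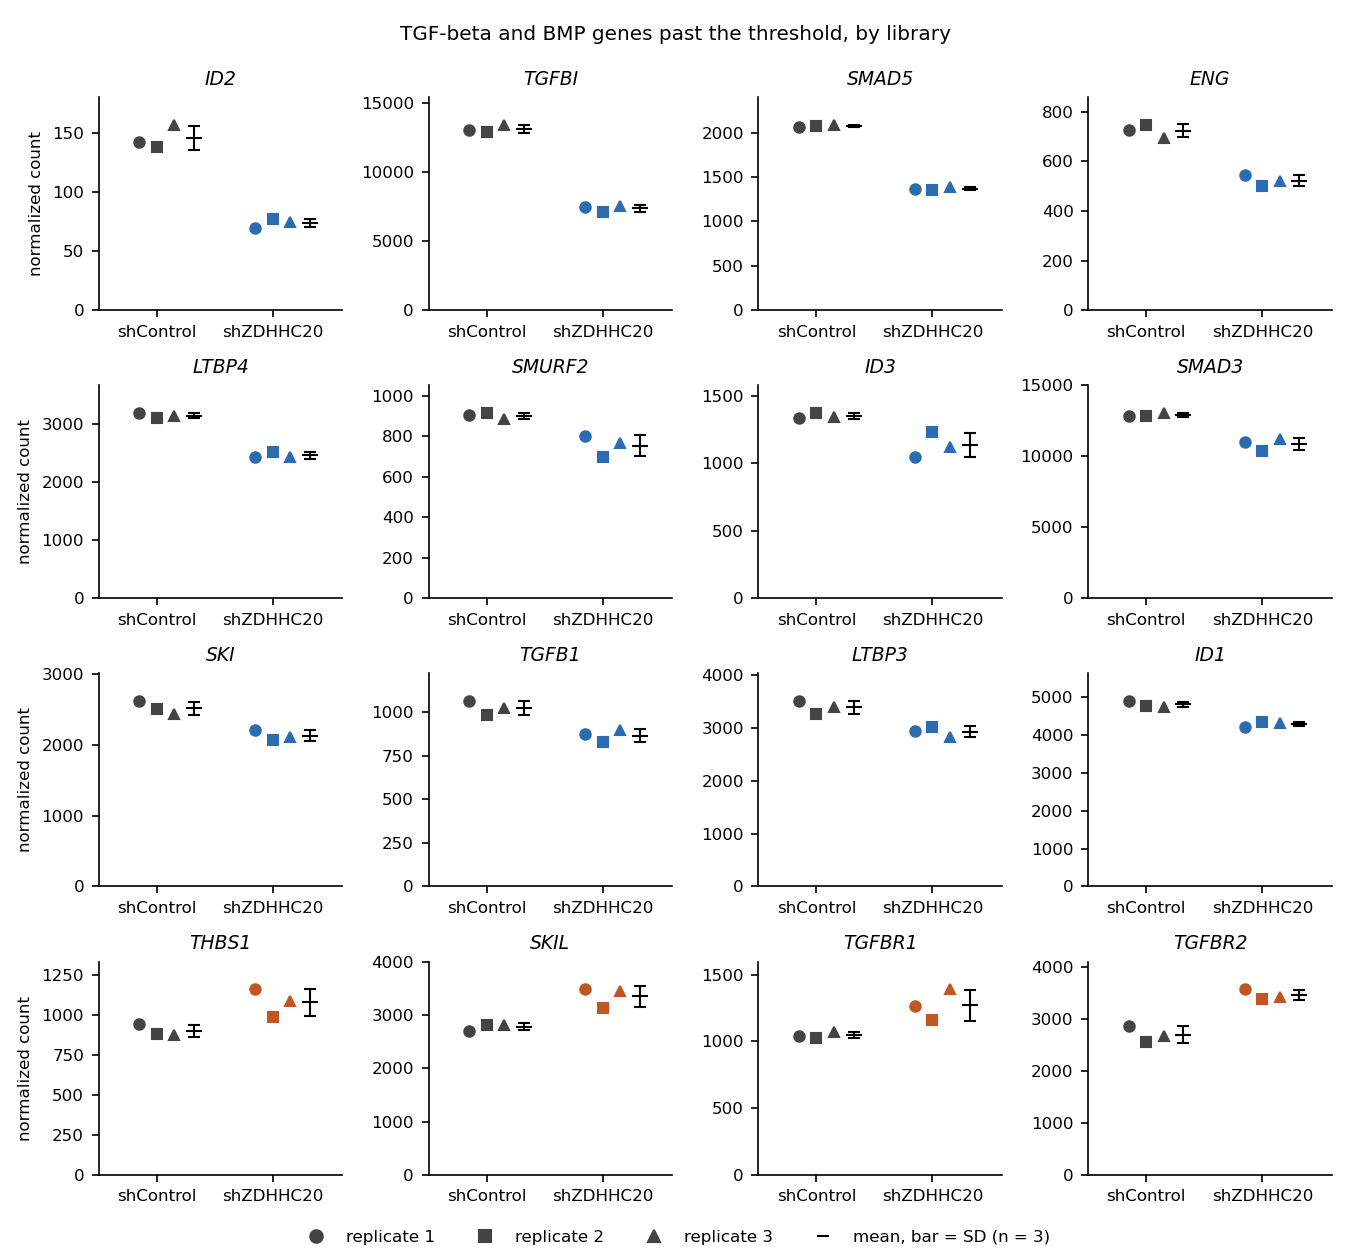
Normalized counts of the 16 genes past the threshold in each of the 3 shControl (grey) and 3 shZDHHC20 libraries (blue where lower, orange where higher), with the mean and SD (n = 3) as a bar and each axis starting at 0. In every panel the groups do not overlap, with gaps that range from the wide one of TGFBI to the narrow one of THBS1.

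Among the 6 ligands, TGFB1 was the only gene to pass. TGFB1, TGFB2 and TGFB3 encode the 3 TGF-beta isoforms, BMP2 and BMP4 encode bone morphogenetic proteins, and INHBA encodes the subunit of activin A. TGFB1 measured 1062, 981 and 1020.2 normalized counts in shControl and 873, 826 and 895 in shZDHHC20. The groups did not overlap, and the fall was 1.18-fold (log2 fold change -0.24, SE 0.0645, adjusted p = 0.029). The call was lost without shControl replicate 1, 2 or 3 or shZDHHC20 replicate 1 (adjusted p = 0.0675 to 0.152) and with upper-quartile scaling (adjusted p = 0.0548). TGFB1 shares 215 exon bases with HNRNPUL1 on the other strand, which was itself lower (log2 fold change -0.19, adjusted p = 0.0353), and whether reads were counted by strand is not known.

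TGFB2 was the ligand with the highest level per length. It measured 2432, 2442 and 2404 in shControl and 2748, 2346 and 2788 in shZDHHC20. Replicates 1 and 3 lay above all controls and replicate 2 below all of them, so the groups overlapped (log2 fold change 0.11, SE 0.0648, adjusted p = 0.333). BMP4 measured 646, 630 and 686 in shControl and 525, 625 and 489 in shZDHHC20. Its groups did not overlap, replicate 2 being just under the lowest control, but BMP4 did not pass (log2 fold change -0.27, SE 0.091, adjusted p = 0.082). TGFB3, INHBA and BMP2 were low, at 24.4 to 43.5, 33.3 to 60.4 and 4.24 to 15.0 normalized counts over the 6 libraries, and had adjusted p of 0.96, 0.228 and 0.426.

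The proportions of the TGF-beta isoforms were compared within each library. Per length, TGFB2 made up 55.0%, 57.0% and 55.6% of the 3 TGF-beta isoforms in shControl and 62.2%, 60.2% and 62.3% in shZDHHC20, and TGFB1 went from 42.9% ± 1.02 to 37.1% ± 1.41 (SD, n = 3). The TGFB2 shares of the groups did not overlap, also in replicate 2. TGFB3 made up 1.28% ± 0.0618 and 1.37% ± 0.365. With 3 libraries against 3, an exact permutation test of a share cannot go below 0.1, so none is given.

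The genes of the latent complex and its activation moved in both directions. Latent TGF-beta binding proteins (LTBP1 to LTBP4) tether the inactive ligand to the matrix, and thrombospondin 1 (THBS1) can release the active form. LTBP4 measured 3187, 3106 and 3133 in shControl and 2430.5, 2522 and 2423 in shZDHHC20. It was lower in every silenced library and passed with each library left out in turn (log2 fold change -0.35, SE 0.0481, adjusted p = 0.000379). LTBP3 measured 3505, 3264 and 3393 in shControl and 2936, 3024 and 2822 in shZDHHC20. The groups did not overlap (log2 fold change -0.21, SE 0.051, adjusted p = 0.017), but the call was lost without shControl replicate 1 or 3 or shZDHHC20 replicate 1 or 3 (adjusted p = 0.0652 to 0.117).

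THBS1 rose, in contrast to LTBP3 and LTBP4. It measured 947, 879.8 and 874 in shControl and 1162, 989 and 1089 in shZDHHC20. Replicate 2 was again the silenced library nearest to the controls (log2 fold change 0.26, SE 0.0721, adjusted p = 0.033), and the call was lost when any library but this replicate was left out (adjusted p = 0.0683 to 0.17). THBS1 shares 859 exon bases with genes on the other strand, FSIP1, which averaged 45.6 and 35.2, and AC037198.2, which is not analysed here. LTBP1 and LTBP2 did not pass, with log2 fold changes of 0.06 and -0.09. Per length LTBP4 held 38.1% ± 0.287 of the 4 binding proteins in shControl and 34.5% ± 0.746 in shZDHHC20, while LTBP3 held 36.3% ± 0.578 and 36.3% ± 0.826 (SD, n = 3). Follistatin (FST), which binds and blocks activin, measured 43.5, 30.1 and 36.0 in shControl and 56.2, 49.8 and 54.9 in shZDHHC20. Its groups did not overlap, but at this low level the rise of 0.57 on the log2 scale had an SE of 0.222 and did not pass (adjusted p = 0.132).

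Both signalling receptors for TGF-beta rose. TGFBR2, the type II kinase that binds the ligand, measured 2866, 2551 and 2666 in shControl and 3565, 3379 and 3413 in shZDHHC20. All silenced libraries were above all controls by a wide margin. The rise was 1.28-fold (log2 fold change 0.36, SE 0.0548, adjusted p = 0.000889) and passed with each library left out in turn. TGFBR1, its type I partner, measured 1043, 1025 and 1071 in shControl and 1264.5, 1158 and 1392 in shZDHHC20. The silenced libraries were higher but spread more widely than the controls (log2 fold change 0.28, SE 0.0709, adjusted p = 0.0224). The TGFBR1 call was lost when any library was left out other than shZDHHC20 replicate 2 (adjusted p = 0.0754 to 0.109). Within the pair, TGFBR2 was at 78.3% ± 0.964 of their summed level per length in shControl and 79.3% ± 1.53 in shZDHHC20 (SD, n = 3), which overlap.

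None of the receptors for activins and BMPs passed. Among the type I receptors, ACVR1, the one with the highest level per length, measured 959, 1118 and 981 in shControl and 1045, 816 and 1046 in shZDHHC20. The groups overlapped, with replicate 2 the lowest of the 6 libraries (log2 fold change -0.08, adjusted p = 0.677). ACVR1B and BMPR1A had log2 fold changes of 0.03 and 0.07. Among the type II receptors, BMPR2 measured 3760.0, 3925 and 3826 in shControl and 4505, 3946 and 4568 in shZDHHC20. It was separated from the controls only narrowly in replicate 2 and missed the threshold (log2 fold change 0.17, SE 0.0583, adjusted p = 0.0746). ACVR2B was lower in the silenced libraries without overlap, at 271 to 303 against 317 to 409 (log2 fold change -0.33, SE 0.106, adjusted p = 0.0663), and ACVR2A overlapped (log2 fold change 0.07).

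Endoglin (ENG), a co-receptor for TGF-beta and BMP ligands, fell. It measured 727, 746 and 694 in shControl and 544, 501 and 519.7 in shZDHHC20. The silenced libraries lay close together and below each control (log2 fold change -0.47, SE 0.0714, adjusted p = 0.000853), and the call held with each library left out in turn. ENG shares 313 exon bases with AL162586.1 on the other strand, which is not analysed here, so its value is uncertain to that extent. ENG is also known as an endothelial gene. Of 7 other endothelial markers, 3 had a mean of at least 1, with sums of 43.1 to 62.6 in shControl and 35.6 to 47.7 in shZDHHC20, which is far under the level of ENG, and none of the 3 passed the threshold. The ligand-presenting co-receptor TGFBR3 (55.6 to 96.7 normalized counts over the 6 libraries) and the decoy receptor BAMBI (5.77 to 26.0) were low and overlapped between groups, with log2 fold changes of 0.17 and -0.99 and adjusted p of 0.663 and 0.235.

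Of the receptor-regulated SMADs, SMAD5 and SMAD3 fell. SMAD5, which carries BMP signals, measured 2067, 2072 and 2087 in shControl and 1369, 1351 and 1385 in shZDHHC20. The spread within each group (SD of 10.0 and 16.7 counts) was small beside the gap between them, and replicate 2 lay close to its fellows. SMAD5 fell 1.52-fold (log2 fold change -0.60, SE 0.0517, adjusted p = 1.29e-05), and it passed under all 16 alternatives. The antisense gene SMAD5-AS1 shares 610 exon bases with it but averaged 0.335 normalized counts in shControl. SMAD3, which carries TGF-beta and activin signals, measured 12852, 12816 and 13057 in shControl and 11042, 10395 and 11216 in shZDHHC20. The groups were clearly apart for this high gene (log2 fold change -0.25, SE 0.0433, adjusted p = 0.00241), and the call held with each library left out in turn. SMAD3 shares 182 exon bases with AC087482.1 on the other strand, which is not analysed here, so that reads from the pair may not be told apart. The same limit holds for TGFB3, LTBP1, LTBP2, ACVR2A, SMAD1 and SMURF1, which did not pass.

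SMAD2, SMAD4, SMAD1 and SMAD9 did not pass. Their log2 fold changes were 0.00, 0.11, 0.14 and -0.43, with SE of 0.0587, 0.0722, 0.109 and 0.331, and their groups overlapped. SMAD4 is the partner of all receptor-regulated SMADs and measured 750 to 835 in shControl and 795 to 899 in shZDHHC20. The makeup of the BMP branch differed between the groups. SMAD5 made up 71.8%, 69.4% and 73.5% of SMAD1, SMAD5 and SMAD9 per length in shControl and 60.0%, 60.5% and 61.5% in shZDHHC20, and SMAD1 went from 26.6% ± 2.34 to 37.5% ± 1.59 (SD, n = 3). The shares depend on which transcripts set the gene length, and with all annotated transcripts SMAD5 went from 84.0% to 76.8%, in the same direction.

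The inhibitory SMADs did not pass with all libraries. SMAD6, which blocks mainly BMP receptors, measured 1060.0, 1039 and 1037 in shControl and 873, 1069.7 and 855 in shZDHHC20. Replicates 1 and 3 were below all controls and replicate 2 was above them (log2 fold change -0.17, SE 0.0816, adjusted p = 0.22). SMAD7, which blocks both branches and recruits ubiquitin ligases to the receptor, measured 687, 627 and 605 in shControl and 534, 653 and 505 in shZDHHC20. Its replicates 1 and 3 were also below all controls. Replicate 2 lay within the range of the controls (log2 fold change -0.19, SE 0.0962, adjusted p = 0.26).

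The intracellular negative regulators were divided. SKI and SKIL encode related co-repressors that bind SMAD complexes on DNA, and they moved in opposite directions. SKI measured 2621, 2509 and 2436 in shControl and 2216, 2072 and 2116 in shZDHHC20. It was lower in every silenced library (log2 fold change -0.24, SE 0.0534, adjusted p = 0.0104), although the call was lost without shControl replicate 1 or 2 (adjusted p = 0.0578 to 0.0861). SKIL measured 2705, 2824 and 2817 in shControl and 3490.5, 3138 and 3450.0 in shZDHHC20. All silenced libraries were higher, replicate 2 the least (log2 fold change 0.27, SE 0.0543, adjusted p = 0.00575), and without shControl replicate 1 the adjusted p was 0.0509.

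SMURF2, a ubiquitin ligase that marks receptors and SMADs for degradation, measured 904, 915 and 884 in shControl and 799, 697 and 765 in shZDHHC20. The groups did not overlap (log2 fold change -0.26, SE 0.0696, adjusted p = 0.0281). The call was lost without shControl replicate 1, 2 or 3 or shZDHHC20 replicate 3 (adjusted p = 0.0613 to 0.121) and with upper-quartile scaling (adjusted p = 0.051). SMURF2 shares 167 exon bases with CEP95 on the other strand, which did not pass (log2 fold change 0.22). Its relative SMURF1 and the co-repressor TGIF1 had log2 fold changes of -0.06 and -0.01. PMEPA1, whose product sequesters receptor-regulated SMADs and which is itself induced by TGF-beta, had the highest level per length of these regulators and measured 4122, 4126 and 4053 in shControl and 4409, 4175 and 4522 in shZDHHC20. The silenced libraries were slightly higher without overlap, but the change did not pass (log2 fold change 0.09, SE 0.0477, adjusted p = 0.273). NKILA, on the other strand of PMEPA1 with 343 shared exon bases, rose from a mean of 46.6 to 87.8 (log2 fold change 0.91, adjusted p = 0.00619).

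Levels of the 41 genes were set side by side as normalized counts per kb of exon. In shControl TGFBI was the highest at 4556 ± 97.3, followed by ID1 at 3897 ± 62.5, SMAD3 at 1784 ± 18.0, ID3 at 1079 ± 15.6 and PMEPA1 at 786 ± 7.85 (SD, n = 3). Each of these differed from the next by more than the SDs of both. Below them LTBP4 (577 ± 7.54) and TGFBR2 (573 ± 33.8) did not differ beyond their spread, nor did TGFBR2 and LTBP3 (549 ± 19.6). The lowest genes were TGFBR3 (9.81 ± 1.69), SMAD9 (6.72 ± 1.55), INHBA (6.25 ± 1.27) and BMP2 (2.98 ± 1.25), of which TGFBR3 and SMAD9, and SMAD9 and INHBA, did not differ beyond their spread. In shZDHHC20 the top of the order changed, with ID1 at 3481 ± 49.3 above TGFBI at 2562 ± 80.7, TGFBR2 rose from rank 7 to rank 6 and LTBP4 fell from rank 6 to rank 11. With all annotated transcripts as the length, ID1 was already above TGFBI in shControl, so the order of these 2 genes depends on the annotation.

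**Figure D3:**
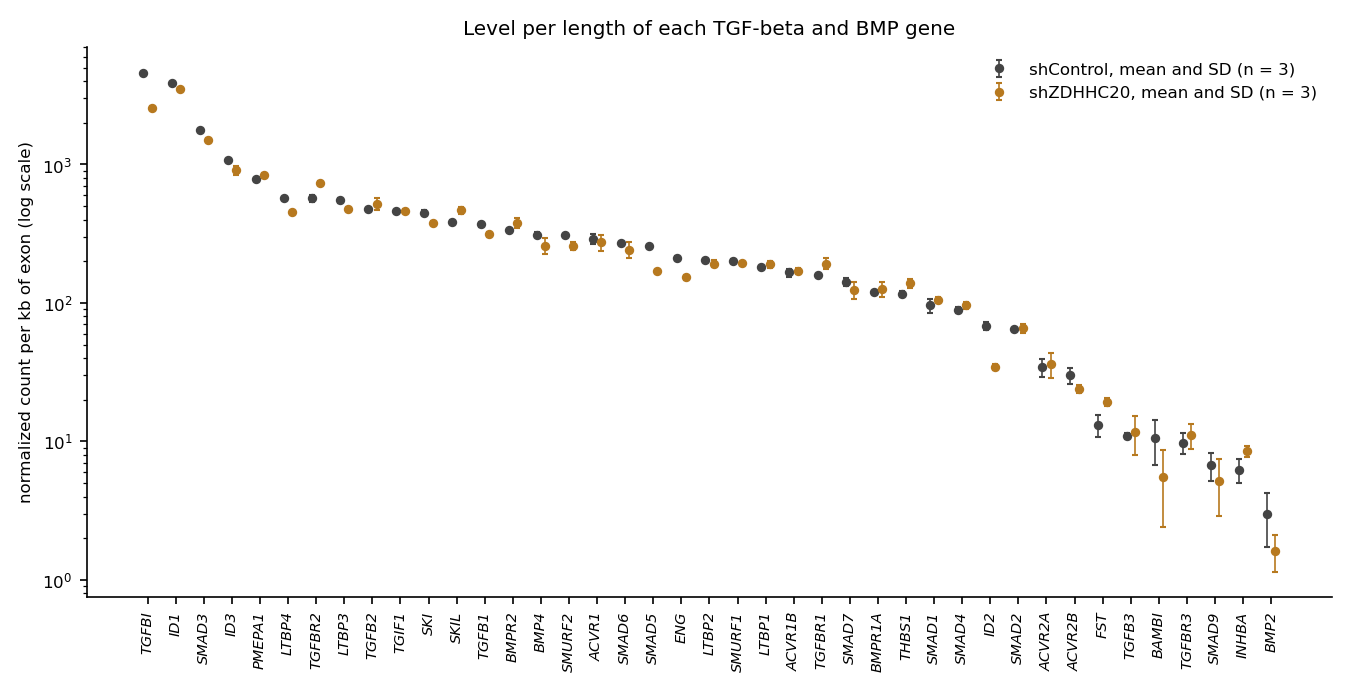
Normalized count per kb of exon (log axis) for the 41 genes in order of their shControl mean, as mean and SD of 3 libraries for shControl (dark) and shZDHHC20 (ochre). The genes span from 4556 for TGFBI to 2.98 for BMP2 in shControl, and the separation of the groups is seen at TGFBI, TGFBR2, LTBP4, SMAD5, ENG and ID2.

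Leaving out shZDHHC20 replicate 2, the library that stood apart, raised the count to 23 of 41 genes (56.1%), 8 higher and 15 lower. The share over all genes rose as well, to 20.0% of 22258 (8.93% higher and 11.1% lower). All 16 genes passed both with and without replicate 2, and 7 passed only without it. These were TGFB2 (log2 fold change 0.19, adjusted p = 0.00144), BMPR1A (0.18, 0.0123), BMPR2 (0.24, 8.78e-05) and PMEPA1 (0.12, 0.01), which were higher, and BMP4 (-0.37, 0.00146), SMAD6 (-0.27, 0.00147) and SMAD7 (-0.30, 0.00871), which were lower. With only shZDHHC20 replicates 1 and 3 the test rests on 2 silenced libraries. In 18 of the 41 genes (43.9%), replicate 2 was nearer to the shControl mean than to the mean of its fellow libraries, where the share over all genes tested was 47.4%.

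**Figure D4:**
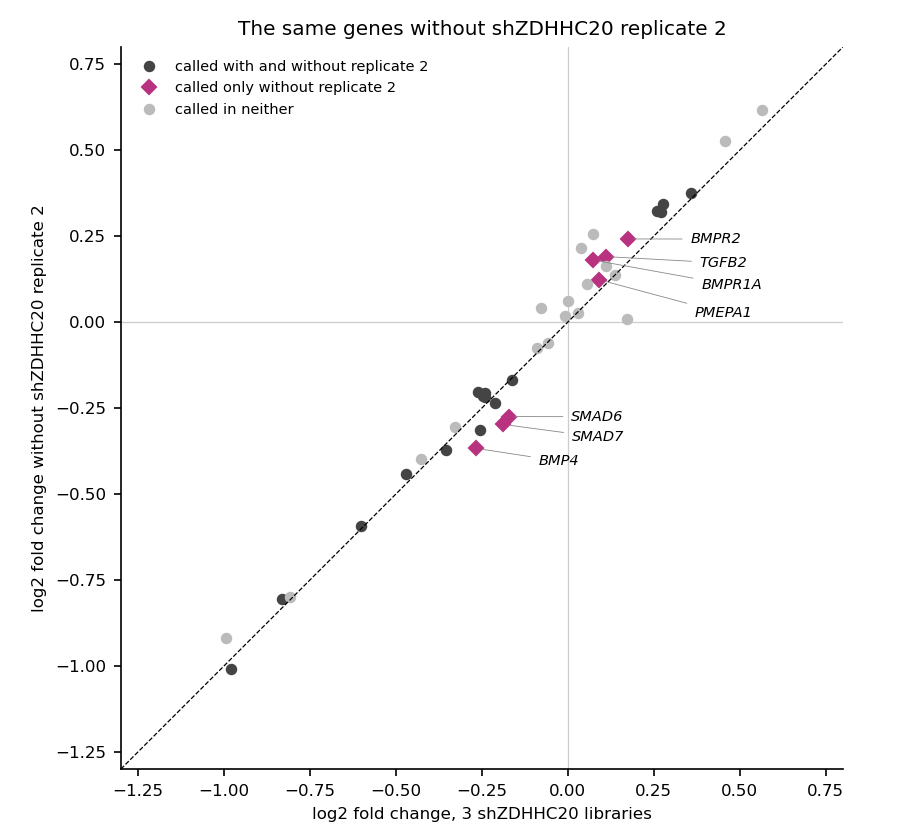
Log2 fold change of the 41 genes with all 3 shZDHHC20 libraries (x axis) and without replicate 2 (y axis), with the line of equal values dashed. The 16 dark points passed the threshold both ways and lie near the line, and the 7 purple diamonds passed only without replicate 2 and lie farther from 0 without it.

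The rest of the pathway was read from 6 lists of 173 further genes, of which 147 were tested, and 36 passed (24.5%, against 11.5% of all genes tested), 8 higher and 28 lower (4.61% and 6.84% of all genes). Of those averaging 100 or more, 34 of 96 passed (35.4%, against 21.7% of all genes at that level). Their median log2 fold change was -0.06. In each list more of the genes past the threshold were lower than higher, but most genes did not pass, and among the ligands 11 of 20 log2 fold changes were above 0. By list, 25.0% of ligands passed, 12.5% of receptors and co-receptors and 16.7% of extracellular antagonists and activation genes, against 11.5% of all genes. Among 20 further ligands, GDF15, a stress-induced relative of the family, fell (log2 fold change -0.44, SE 0.0447, adjusted p = 3.65e-05), as did BMP6 (-0.36, SE 0.0771, 0.00913) and BMP7, while BMP5 (0.68, SE 0.11, 0.00133) and INHBB, the subunit of activin B, rose. The call of BMP6 was lost without shControl replicate 3 (adjusted p = 0.0725), and BMP7 and INHBB passed in 13 and 9 of 16 alternatives. Among 8 further receptors and co-receptors only NRP1, a co-receptor for semaphorins and TGF-beta, passed (-0.32, SE 0.0803, 0.0194), and it did not without shControl replicate 1, 2 or 3 or shZDHHC20 replicate 1 (adjusted p = 0.0754 to 0.0944). Of 24 extracellular antagonists and activation genes 4 fell and none rose, namely NBL1, which passed in 7 of 16 alternatives, CRIM1, which holds BMPs at the cell surface (-0.25, SE 0.0426, 0.00215), NRROS, which anchors latent TGF-beta on cells (-0.64, SE 0.176, 0.032), and the integrin subunit ITGAV (-0.15, SE 0.043, 0.0339), which takes part in activation. The call of NRROS was lost without shControl replicate 1 or 2 or shZDHHC20 replicate 1 or 3 (adjusted p = 0.0510 to 0.149), and that of ITGAV without shControl replicate 1, 2 or 3 or shZDHHC20 replicate 1 (adjusted p = 0.0979 to 0.152).

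Of 45 intracellular regulators, 3 rose and 7 fell (22.2% passed, against 11.5% of all genes). Among regulators averaging 100 or more, 24.4% passed, near the 21.7% of all genes at that level. The leading regulators past the threshold were CTDSPL, of the phosphatases that act on SMADs (-0.54, SE 0.0769, 0.000548), PARP1 (-0.32, SE 0.0494, 0.00102) and XIAP, a ubiquitin ligase that rose (0.29, SE 0.0514, 0.0025), as did USP4 and RNF111, which passed in 15 and 9 of 16 alternatives. Of 37 further genes induced by TGF-beta, 9 fell and 2 rose (29.7% passed, against 11.5% of all genes). Of those averaging 100 or more, 42.3% passed, against 21.7% of all genes at that level. ANGPTL4, a secreted inhibitor of lipoprotein lipase (-0.59, SE 0.0639, 6.18e-05), LOXL2, which crosslinks collagen (-0.40, SE 0.0525, 0.000307), and CCN2, a matrix-associated growth factor binder (-0.41, SE 0.0572, 0.000501), fell, and the transcription factor BHLHE40 rose (0.36, SE 0.0457, 0.000233), as did TSC22D1, which passed in 10 of 16 alternatives. COL1A1 is on this list and is also 1 of 8 fibroblast markers, of which 4 were detected, with sums of 3967 to 4041 in shControl and 3194 to 3476 in shZDHHC20 that came almost wholly from COL1A1. Of 13 further BMP targets, 4 fell and 1 rose (38.5% passed). The falls were led by the transcription factors ATOH8 (-1.07, SE 0.122, 9.38e-05), MSX1 (-0.95, SE 0.216, 0.0124) and DLX3 (-0.63, SE 0.145, 0.0126), and RUNX2 also fell, while GATA3 rose (0.33, SE 0.0955, 0.0388). The call of MSX1 was lost without shControl replicate 3 (adjusted p = 0.0845) and that of DLX3 without shControl replicate 1 or 3 or shZDHHC20 replicate 1 (adjusted p = 0.0628 to 0.0719), and RUNX2 and GATA3 passed in 12 and 9 of 16 alternatives. Exons of NRP1, CRIM1, ITGAV, CCN2, LOXL2, BHLHE40, ANGPTL4 and TSC22D1 overlap genes on the other strand, so their values are uncertain to that extent. Values in parentheses are log2 fold changes, SE and adjusted p in limma.

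**Figure D5:**
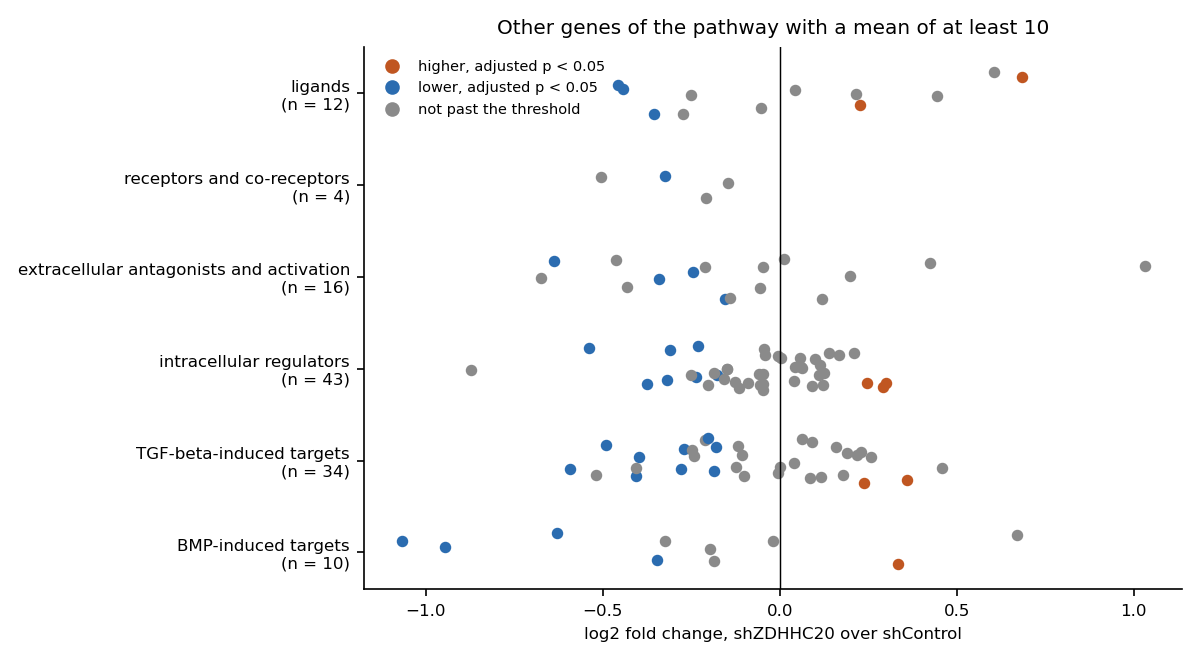
Log2 fold change of shZDHHC20 over shControl (x axis) for further pathway genes with a mean of at least 10 in the 6 lists (y axis, with the number of genes plotted), 1 point per gene and spread vertically for legibility. Blue points fell and orange points rose at an adjusted p under 0.05 and grey points did not pass, and the 3 points farthest to the left among the BMP targets are ATOH8, MSX1 and DLX3.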

How the data were processed

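RNA-seq of PANC-1 cells gave 1 table with 3 shControl and 3 shZDHHC20 libraries, prepared from total RNA with a directional kit and not pooled. The table that the authors deposited holds a normalized signal for each gene in each library. It is named as FPKM, but all 27394 values of each library are whole multiples (within 0.01) of its smallest value above 0, at 0.939 to 1.06, and the values show no division by length. The submitters' notes name the hg19 build, and the aligner, counter, annotation and strand setting are not given in the sources used here. No count test was run on this normalized signal, and depth in reads is known only by these steps, so no counting intervals are given.

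Identifiers were named from a reference table (27175 of 27394) and GENCODE 29 (219), which on GRCh38 also gave exon lengths and overlapping genes. Genes with a mean of at least 1 were kept, 0.1 was added before taking log2, and the groups were compared by linear models in limma 3.58.1 (R 4.3.3) with a mean-variance trend. P-values are two-sided, with Benjamini-Hochberg adjustment across every gene tested. The 41 genes, the further lists and the tests were chosen with earlier results of these data known. Full values are given for genes past the threshold and for the gene of each role with the highest level per length. For each further list up to 3 genes past the threshold, those with the smallest adjusted p, are named, and other genes of these lists were named after their values were seen. Some results for single genes of these lists are not reported here. Genes whose exons overlap the other strand are given as uncertain, 14 of the 41. Promoter sequences are from RefSeq on GRCh38.p14. Alternatives were pseudocounts, filters, scalings, other settings of the moderation, a block for the replicate number and the removal of each library.

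On data simulated for shZDHHC20 against shControl with 27394 genes, 198 of 200 genes changed 2-fold were recovered and 5 of 21996 unchanged genes were called, and with no change simulated 0 of 22182 were called. The simulation gave every library the same spread, so it did not mimic shZDHHC20 replicate 2. The changed genes were not taken from low levels. All 16 pathway genes that passed changed by less than 2-fold, and recovery of such smaller changes was not simulated.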

Additional observations from a re-analysis of the deposited data

How the results depend on the processing

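All alternatives were compared with 16 of 41 pathway genes past the threshold, 4 higher and 12 lower, among 2541 genes. Without the mean-variance trend, 351 genes passed, with 3 of the 41 (0 higher, 3 lower) and 3 of the further pathway genes. Leaving out 1 library gave 1233 to 4454 genes, 7 to 23 of the 41, 1 to 8 higher, 6 to 15 lower, and 19 to 56 further genes. The count of the 41 was lowest without shControl replicate 1 and highest without shZDHHC20 replicate 2, and without shControl replicates 2 and 3 and shZDHHC20 replicates 1 and 3 it was 9, 9, 10 and 10. The other alternatives gave 13 to 18 of the 41. Same-numbered libraries showed no shared deviation (correlations of -0.0518, -0.0562 and -0.0215). This cannot show whether they were prepared in pairs, which the labels do not say. With a replicate block 1942 genes and 13 of the 41 passed, 4 higher and 9 lower, with 27 further genes, and TGFB1, SMURF2 and ID1 no longer did. The cause of these differences was not tested.

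Quantile normalization also ended the call of LTBP3 (adjusted p = 0.0521). Only genes that never passed changed sign. TGFB3 was at -0.0291 with quantile normalization, and TGIF1 was at 0.0172 with upper-quartile scaling and 0.0301 with quantile normalization. With 1 library left out, log2 fold changes ran from -0.198 (without shZDHHC20 replicate 1) to 0.217 for TGFB3, from -0.139 to 0.0400 (without shZDHHC20 replicate 2) for ACVR1, from -0.0220 (without shControl replicate 2) to 0.0742 for ACVR1B, from -0.0233 (without shZDHHC20 replicate 1) to 0.257 for ACVR2A, from -0.0364 (without shZDHHC20 replicate 3) to 0.0605 for SMAD2 and from -0.0238 to 0.0164 (without shZDHHC20 replicate 2) for TGIF1. Of the values of single genes under the alternatives, 796 kept their direction and side of the threshold, 89 lost and 12 gained significance and 14 changed sign.

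Count tests were not run. Genes under 100 normalized counts had SE of up to 0.558, so small changes were not detectable there.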

Other observations

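TGFBI and SMAD5, with the smallest and the second smallest adjusted p of the 41 genes, are neighbours on chromosome 5. In GENCODE 29 on GRCh38 they lie on the same strand, TGFBI at 136028895 to 136063818 and SMAD5 at 136132845 to 136188747, with a gap of 69.0 kb that holds no other gene of the table in full. This was looked at after the values were seen. Of 5 other genes of the table within 500.0 kb of the pair, 1 had a mean of at least 1. This was SMIM32, at means of 2.02 in shControl and 2.79 in shZDHHC20, and it did not pass (log2 fold change 1.23, SE 2.26, adjusted p = 0.799). The pair were the only genes of this stretch with a level that allowed a comparison, and whether their position bears on their change was not tested.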
